A study of Citrus sinensis with 48 samples.

Results

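LOC102630057 is annotated as ribulose bisphosphate carboxylase/oxygenase activase 2 of the chloroplast. It is 1 of 3 rubisco activase genes among the 30136 genes of the deposited table. It was selected on its expression over these same libraries, so its levels and fold changes are given as a description, without a test. The other activases, LOC102627294 and LOC102619184, both carry the description rubisco activase of the chloroplast. They were taken by that description alone and serve as the comparison.

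The libraries were made from leaves of 2 citrus rootstocks. Cleopatra mandarin (Citrus reshni, Cleo below) and Carrizo citrange (a cross of Poncirus trifoliata with Citrus sinensis, Car below) were each studied under 8 treatments. HL stands for high light, HS for heat, WS for water stress and CT for the control, and a plus sign joins stresses given together (HL+HS, WS+HL+HS, WS+HS and WS+HL). Each of the 16 groups holds 3 libraries labelled as biological replicates, 48 in all, with 40294831 to 58392998 counts per library. The sources used here do not give durations, light intensities, temperatures, plant age or whether replicates were separate plants or pools. The p-values therefore cover only the spread among these libraries, which may be technical. In 11 of the 48 libraries the column name carries a mark whose meaning the sources used here do not give. Reads of both rootstocks were counted on sweet orange gene models, and how far that affects levels of Cleo and Car differently was not tested.

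Rubisco fixes carbon dioxide in the chloroplast stroma, and its active sites become blocked by tightly bound sugar phosphates. Rubisco activase is an ATP-driven ring protein that remodels rubisco and frees those sites. In leaves it is known as one of the most heat-sensitive components of photosynthesis, and plants often carry several activase genes or splice forms that differ in heat stability and in regulation by chloroplast thioredoxins. Which of these forms LOC102630057 encodes was not examined here.

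LOC102630057 was among the most abundant transcripts of all under light with heat, and was far lower in unstressed leaves. Levels are the authors' TPM, which are scaled by gene length and library and so can be set beside each other across genes. In HL+HS leaves it had 6675, 6922 and 5911 TPM in Cleo and 11751, 11871 and 11973 TPM in Car. In CT leaves it had 32.6, 34.2 and 31.8 TPM in Cleo and 67.1, 60.2 and 65.9 TPM in Car. No library of the HL+HS groups came near a CT library, and the mean was 198 times that of CT in Cleo and 184 times in Car. Ranked by TPM over all genes of the table, it stood at place 3 in each HL+HS Car library and at places 8 to 11 in HL+HS Cleo. In CT it stood at places 5492 to 5858 in Cleo and 3078 to 3763 in Car.

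Behind these levels lay between 1934 and 721992 counts per library, or 0.00355% to 1.36% of a library. The spread of replicates, as SD over mean, was at most 12.1% in any group. These are bulk leaf samples, in which fewer cells expressing a gene and less RNA per cell cannot be told apart. Near-identical activase copies can also share reads, and the sources used here do not say how reads that align to several places were treated. How much of the low CT level of LOC102630057 could come from the abundant LOC102627294 was not tested.

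The same gene under all 3 stresses together stood below its level under HL+HS. WS+HL+HS leaves had 3393, 3786 and 3748 TPM in Cleo and 6754, 6756 and 6801 TPM in Car. The 3 Car libraries lay close together. Water stress added to HL+HS thus went with 0.560 ± 0.056 times the level in Cleo and 0.571 ± 0.006 times in Car (ratio of means ± SD propagated from 3 libraries per group), and neither pair of groups overlapped.

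Heat without high light gave an intermediate level. HS leaves had 1796, 1701 and 1811 TPM in Cleo and 1923, 2435 and 2332 TPM in Car, all far above CT. WS+HS leaves had 2390, 2392 and 2375 TPM in Cleo and 1499, 1518 and 1438 TPM in Car. Adding water stress to heat therefore stood in opposite directions in the genotypes: the Cleo libraries were all higher than under HS alone (1.35 times) and the Car libraries all lower (0.666 times). All 3 HS Car libraries carry the mark on their column names, so no comparison with HS Car could be made within unmarked libraries.

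High light alone also gave an intermediate level. HL leaves had 1629, 1533 and 1747 TPM in Cleo and 1477, 1546 and 1668 TPM in Car. All HL Car libraries lay below the HS Car libraries, while HL Cleo and HS Cleo overlapped. By TPM, the genotypes overlapped under HL, which was so for no other treatment. This depends on the scaling. By CPM (counts scaled to library size after TMM), HL Cleo (2049 to 2389) lay wholly above HL Car (1500 to 1615). Under HS the genotypes overlapped by CPM, at 1927 to 2020 in Cleo and 1886 to 2398 in Car. Under WS+HL the level was a small part of the HL level: 76.3, 77.5 and 82.7 TPM in Cleo and 368.9, 345.0 and 360.3 TPM in Car. Against HL alone, WS+HL leaves had 0.0482 times the level in Cleo and 0.229 times in Car. All 6 WS+HL libraries remained above the CT libraries of their genotype, at 2.40 times the CT mean in Cleo and 5.56 times in Car.

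Water stress alone left LOC102630057 near its control level. WS leaves had 33.9, 36.7 and 31.1 TPM in Cleo, overlapping the CT libraries (31.8 to 34.2 TPM). In Car they had 48, 47.0 and 46.3 TPM, below every CT library, at 0.732 ± 0.044 times the CT mean. Of the 14 stress groups, 12 lay wholly above their CT libraries, 1 (WS Cleo) overlapped them and 1 (WS Car) lay wholly below.

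**Figure D1:**
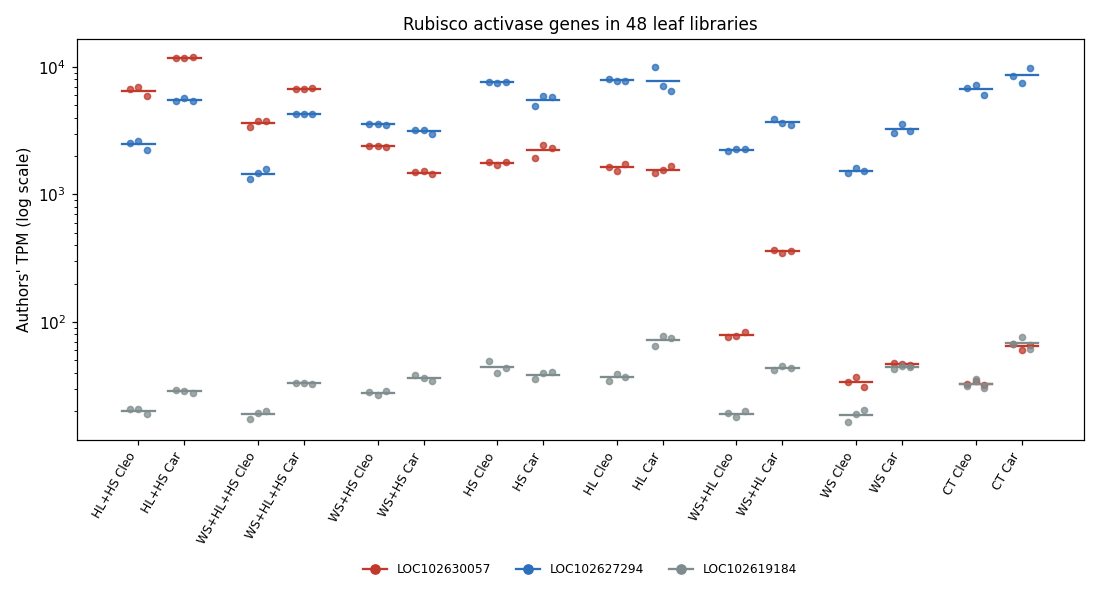
Authors' TPM on a log axis of the 3 rubisco activase genes in each of 48 leaf libraries (points) with the mean of each group (lines), by treatment and genotype. LOC102630057 lies near LOC102619184 in CT leaves and above LOC102627294 in the HL+HS and WS+HL+HS groups.

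Ordered by mean level, the groups ran HL+HS Car (11865 ± 111 TPM), WS+HL+HS Car (6770 ± 26.3), HL+HS Cleo (6503 ± 527), WS+HL+HS Cleo (3642 ± 217), WS+HS Cleo (2386 ± 9.64), HS Car (2230 ± 271) and HS Cleo (1770 ± 59.6) at the upper end (mean ± SD, n = 3 each). HL Cleo (1637 ± 107), HL Car (1564 ± 96.5), WS+HS Car (1485 ± 41.7), WS+HL Car (358 ± 12.1), WS+HL Cleo (78.8 ± 3.40), CT Car (64.4 ± 3.69), WS Car (47.1 ± 0.853), WS Cleo (33.9 ± 2.77) and CT Cleo (32.9 ± 1.27) followed. The highest mean was 361 times the lowest. Of the 15 pairs of neighbours in this order, 6 had overlapping libraries. These were WS+HL+HS Car with HL+HS Cleo, WS+HS Cleo with HS Car, the chain of HS Cleo, HL Cleo, HL Car and WS+HS Car, and WS Cleo with CT Cleo. This order is that of TPM. By CPM, HL+HS Cleo (8484 to 9056) lay wholly above WS+HL+HS Car (6842 to 6898). HL Cleo (2049 to 2389) lay wholly above HS Cleo (1927 to 2020) and HL Car (1500 to 1615).

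Responses were also fitted on the counts after TMM scaling of the libraries. On the log2 scale, LOC102630057 stood at 7.80 ± 0.10 against CT in HL+HS Cleo and 7.87 ± 0.10 in HL+HS Car (fold change ± SE). Under WS+HL+HS the values were 6.83 in Cleo and 6.78 in Car. The single stresses gave 5.84 in Cleo and 4.65 in Car under HL, 5.65 in Cleo and 5.15 in Car under HS, and 0.12 in Cleo and -0.33 in Car under WS. For WS+HS they were 5.98 in Cleo and 4.59 in Car, and for WS+HL 1.43 in Cleo and 2.68 in Car.

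Scaling bears on the exact size of these values. Without TMM factors the median of all tested genes shifted by up to -0.28 on the log2 scale, in HL+HS Car, and on the authors' TPM by -0.22 in the same comparison. The HL+HS Car value was 7.58 by library totals and 7.51 by TPM, and the HL+HS Cleo value 7.65 and 7.58. In Cleo, HL stood above HS in the fit (5.84 and 5.65) and below it on TPM (5.59 and 5.71). In unmarked libraries alone, which leave 1 CT Car library, HL+HS Car stood at 8.04.

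**Figure D2:**
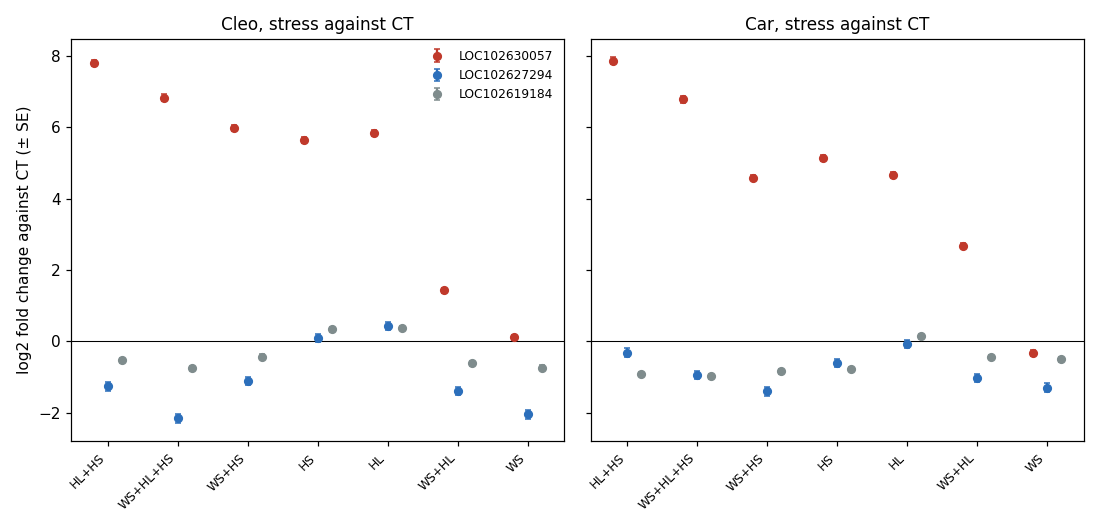
log2 fold change against CT (points, bars are ± SE of the fitted model) of the 3 activase genes for 7 stresses in Cleo (left panel) and Car (right panel). LOC102630057 reaches 7.80 in HL+HS Cleo and 7.87 in HL+HS Car, while LOC102627294 and LOC102619184 lie between -2.16 and 0.44.

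Under HL+HS the LOC102630057 transcript stood above what the separate gains add up to. Adding the gains under HL and under HS to the CT level gives 3373 ± 123 TPM in Cleo and 3730 ± 288 TPM in Car. The measured level was 1.93 times that sum in Cleo and 3.18 times in Car. On the log2 scale, where gains multiply, the direction is the opposite: the HL+HS response was smaller than the 2 single responses summed, by -3.69 ± 0.10 in Cleo and -1.93 ± 0.10 in Car.

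For water stress the values with light and with heat differed widely. Under WS+HL the measured TPM was 0.0481 times the summed gains in Cleo and 0.232 times in Car, and the log2 departure was -4.52 in Cleo and -1.65 in Car. Among the log2 departures of the 23721 genes tested, that of LOC102630057 under WS+HL had rank 23311 in Cleo and 22300 in Car, counted from the highest. Its HL+HS departure ranked lower still, at 23372 in Cleo and 22641 in Car. With heat, the WS+HS level was 1.35 times the sum in Cleo and 0.671 times in Car, and the log2 departures were 0.22 in Cleo and -0.23 in Car. Under all 3 stresses the measured level was 1.08 times the sum in Cleo and 1.82 times in Car.

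**Figure D3:**
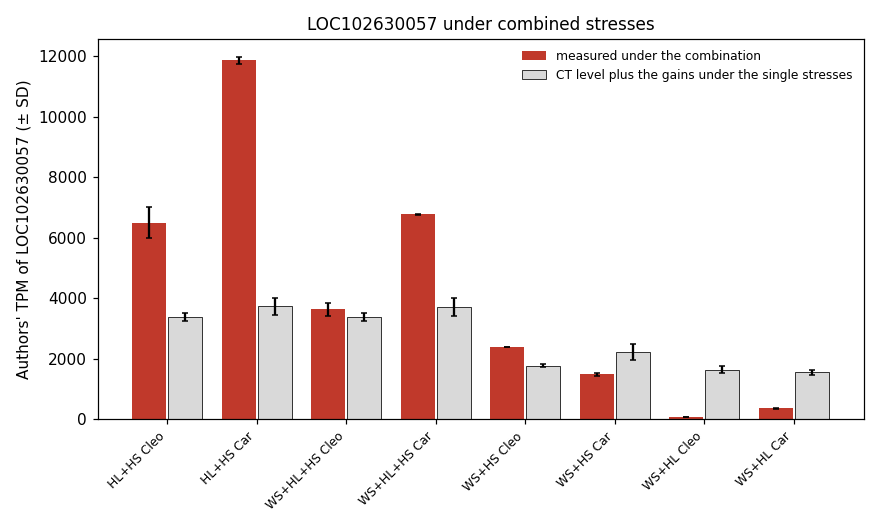
Authors' TPM of LOC102630057 measured in each combined stress (red, mean ± SD, n = 3) beside the CT level plus the gains under the single stresses (grey, ± propagated SD). HL+HS Car stands at 11865 TPM against a sum of 3730, and WS+HL Cleo at 78.8 TPM against a sum of 1638.

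By TPM, LOC102630057 was lower in Cleo than in Car in most treatments. The CT level in Cleo was 0.510 ± 0.035 times that in Car (0.625 times in the fit), and the ratio was 0.548 under HL+HS, 0.538 under WS+HL+HS, 0.793 under HS, 0.719 under WS and 0.220 under WS+HL. WS+HS was the exception, at 1.61 times, and under HL the ratio was 1.05 with overlapping libraries. The response to stress, set against each genotype's own control, was larger in Cleo by 1.18 under HL, 0.50 under HS, 0.44 under WS and 1.39 under WS+HS on the log2 scale. It was smaller in Cleo by -1.25 under WS+HL, and it differed by -0.07 under HL+HS and 0.05 under WS+HL+HS, each below its SE of 0.10.

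The makeup of the leaf's activase transcripts differed accordingly. LOC102630057 made 72.3% ± 0.049 of the summed activase TPM in HL+HS Cleo and 68.3% ± 0.67 in HL+HS Car (SD, n = 3), against 0.487% ± 0.026 in CT Cleo and 0.741% ± 0.070 in CT Car. Under WS+HL+HS it made 71.2% ± 0.99 in Cleo and 61.1% ± 0.12 in Car. In these 4 groups LOC102630057 exceeded LOC102627294 in every library, and in the other groups it exceeded it in none of the group means.

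In the remaining groups the share was intermediate or small. It was 39.9% in WS+HS Cleo and 31.9% in WS+HS Car, and 18.8% in HS Cleo and 28.4% in HS Car. Under HL it was 17.1% in Cleo and 17.0% in Car, with the widest spread in HL Car (12.9% to 20.3%). Under WS+HL it was 3.35% in Cleo and 8.75% in Car, and under WS 2.12% in Cleo and 1.42% in Car.

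Under HL+HS and WS+HL+HS the sum of the 3 activases moved far less than the share, which was not so under WS. It was 8992 ± 724 TPM in HL+HS Cleo against 6767 ± 562 in CT Cleo, and 17378 ± 208 TPM in HL+HS Car against 8761 ± 1175 in CT Car. Under WS it was 1594 ± 80.2 TPM in Cleo and 3331 ± 278 in Car, the lowest sum of each genotype. Under WS+HL+HS it was 5116 ± 339 TPM in Cleo, below the CT sum, and 11086 ± 51.3 in Car, above it.

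**Figure D4:**
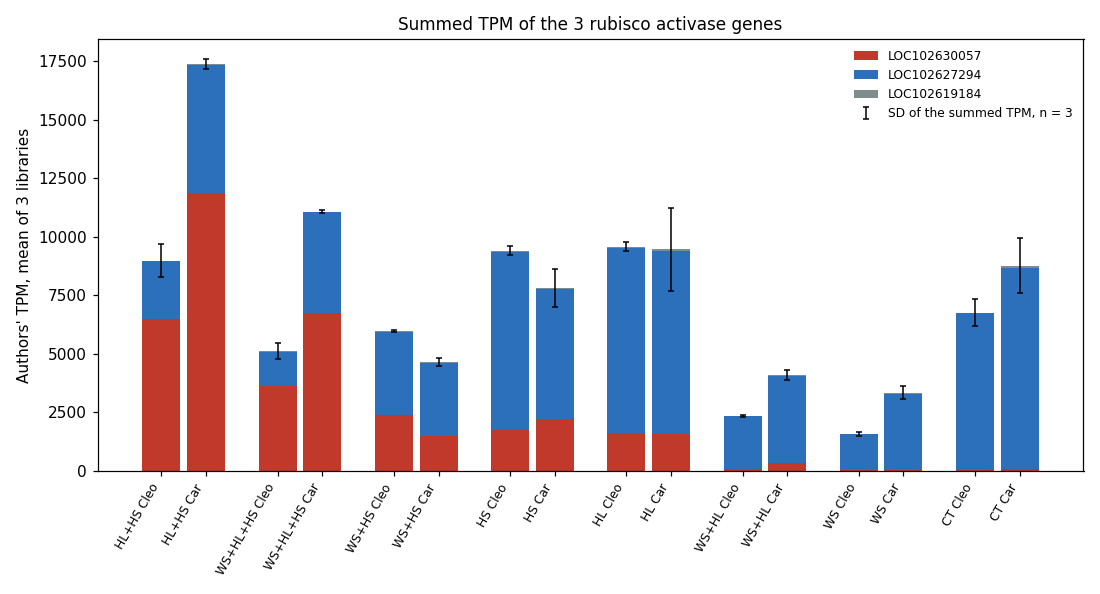
Mean authors' TPM of LOC102630057 (red), LOC102627294 (blue) and LOC102619184 (grey) stacked for each group of 3 leaf libraries, with the SD of the sum. The red part fills most of the bar in the HL+HS and WS+HL+HS groups (61.1% to 72.3%) and under 1% of it in CT.

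LOC102627294, the activase that held 99.0% of the CT sum in Cleo and 98.5% in Car, was tested in the same comparisons. It had 6834, 7183 and 6089 TPM in CT Cleo and 8531, 7500 and 9853 TPM in CT Car. By edgeR's quasi-likelihood test with Benjamini-Hochberg adjustment over all 23721 tested genes, called below 0.05, it fell in 11 of 14 stress comparisons and rose in 1. LOC102619184, which held 0.482% of the CT sum in Cleo and 0.798% in Car (30.5 to 35.6 TPM in CT Cleo, 61.7 to 76.5 TPM in CT Car), fell in 11 of 14 and rose in 2. Over the 14 comparisons both genes lay between -2.16 and 0.44 on the log2 scale. The spread of LOC102627294 was unequal between groups. By CPM the mean ± SD was 8467 ± 1570 in CT Car and 8056 ± 2555 in HL Car. It was 8023 ± 106 in CT Cleo and 4386 ± 7.81 in WS+HL+HS Car. The test shares 1 estimate of spread over all groups, so p-values of this gene that involve CT Car or HL Car may be too small.

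Both comparison genes fell under water stress. LOC102627294 had 1479, 1628 and 1518 TPM in WS Cleo and 3022, 3553 and 3146 TPM in WS Car, all below CT. Its log2 fold change was -2.05 ± 0.12 in Cleo (adjusted p = 1.2e-18) and -1.30 ± 0.12 in Car (adjusted p = 8.8e-13). LOC102619184 fell by 0.74 in Cleo and by 0.50 in Car. Of all tested genes, 31.2% were called higher and 33.4% lower in WS Cleo, and 29.5% higher and 35.3% lower in WS Car, so a fall was a common call.

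Under high light LOC102627294 had 8104, 7807 and 7791 TPM in Cleo and 9942, 7095 and 6456 TPM in Car. It rose in Cleo (log2 0.44 ± 0.11, adjusted p = 0.0023), and in Car it did not pass the test (-0.07 ± 0.11, adjusted p = 0.76). Without the Car library at 9942 TPM, replicate 1, the log2 fold change in Car was -0.36 and passed (adjusted p = 0.0021). LOC102619184 rose by 0.37 in Cleo (adjusted p = 1.4e-05) and stood at 0.14 in Car (adjusted p = 0.14). The background was 17.7% of genes higher and 18% lower in HL Cleo, and 9.69% higher and 8.77% lower in HL Car.

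Under heat the genotypes differed for both comparison genes. All HS Car libraries carry the column mark and no HS Cleo library does, so under HS genotype and mark cannot be told apart. The same libraries enter the HS interactions and the Car departures with HS given below. LOC102627294 had 7700, 7439 and 7662 TPM in HS Cleo (log2 0.09 ± 0.11, adjusted p = 0.55) and 4953, 5941 and 5791 TPM in HS Car (-0.60 ± 0.12, adjusted p = 2e-05). LOC102619184 rose by 0.33 in Cleo (adjusted p = 3.3e-05) and fell by 0.78 in Car (adjusted p = 1.9e-13). Called genes made up 27.1% higher and 27.4% lower in HS Cleo, and 32.3% higher and 26.3% lower in HS Car.

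Under HL+HS, where LOC102630057 was highest, LOC102627294 fell. It had 2536, 2622 and 2248 TPM in Cleo (log2 -1.26 ± 0.12, adjusted p = 1.6e-12) and 5384, 5679 and 5392 TPM in Car (-0.32 ± 0.11, adjusted p = 0.017). The Car call was lost without CT Car replicate 3, the control library at 9853 TPM (-0.17, adjusted p = 0.23), and without HL+HS Car replicate 1 (-0.29, adjusted p = 0.053). With the unmarked libraries alone the value was -0.04, but CT Car is then 1 library (replicate 2, at 7500 TPM), whose spread is assumed to be like that of the other groups. LOC102619184 fell by 0.53 in Cleo and by 0.91 in Car. The background was 35.5% higher and 31.5% lower in HL+HS Cleo, and 29.5% higher and 31.4% lower in HL+HS Car.

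Both comparison genes also fell under every other combination. Under WS+HL+HS, LOC102627294 fell by 2.16 in Cleo and by 0.95 in Car, under WS+HS by 1.10 in Cleo and by 1.40 in Car, and under WS+HL by 1.40 in Cleo and by 1.03 in Car on the log2 scale. LOC102619184 fell by 0.75 and 0.98 in WS+HL+HS Cleo and Car, by 0.43 and 0.84 in WS+HS Cleo and Car, and by 0.61 and 0.44 in WS+HL Cleo and Car. The background for WS+HL+HS was 37.5% higher and 35.1% lower in Cleo, and 32.5% higher and 38.7% lower in Car. For WS+HS it was 32.2% higher and 32% lower in Cleo, and 31.9% higher and 35% lower in Car. For WS+HL it was 31.2% higher and 33.7% lower in Cleo, and 28.8% higher and 33.2% lower in Car.

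Without stress LOC102627294 did not pass the test between genotypes (Cleo over Car -0.08 ± 0.11 on the log2 scale, adjusted p = 0.57), while LOC102619184 was lower in Cleo (-0.76 ± 0.06, adjusted p = 2.1e-13). The share of all genes called in this comparison was 67.4%. On the authors' TPM the LOC102627294 libraries of CT Cleo were all below those of CT Car, at 0.777 times, and with library totals in place of TMM the difference passed the test (-0.29, adjusted p = 0.015). Without CT Car replicate 3 the sign was reversed and the difference did not pass (0.07, adjusted p = 0.65). With unmarked libraries alone the value was 0.20, from the single CT Car library of replicate 2, whose spread is assumed to be like that of the other groups.

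The response of LOC102627294 to stress differed between genotypes in 5 of 7 treatments by the interaction term of the same model. It was lower in Cleo by -1.21 ± 0.16 under WS+HL+HS (adjusted p = 3.6e-08), -0.95 under HL+HS (adjusted p = 5.1e-06) and -0.75 under WS (adjusted p = 0.00025), and higher by 0.69 under HS (adjusted p = 0.00054) and 0.51 under HL (adjusted p = 0.026). The HL call was lost on leaving out any of 5 libraries, among them CT Car replicate 3 (0.36, adjusted p = 0.14), HL Car replicate 2 (0.41, adjusted p = 0.10) and HL Car replicate 3 (0.36, adjusted p = 0.13), and also CT Cleo replicate 1 (0.50, adjusted p = 0.051) and HL Cleo replicate 1 (0.48, adjusted p = 0.061). WS+HL (-0.38, adjusted p = 0.063) and WS+HS (0.30, adjusted p = 0.14) did not pass, but WS+HL passed without CT Car replicate 3 (-0.52, adjusted p = 0.0087) and WS+HS without CT Car replicate 2 (0.42, adjusted p = 0.032). Interaction calls over all genes made up 56.4% for WS+HL+HS, 50.1% for HL+HS, 36.1% for WS, 43.7% for HS, 15.4% for HL, 40% for WS+HL and 41.7% for WS+HS.

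LOC102619184 also differed in 5 of 7. Its response was higher in Cleo by 1.11 under HS (adjusted p = 4.7e-13), 0.41 under WS+HS (adjusted p = 0.00038), 0.38 under HL+HS (adjusted p = 0.00073) and 0.23 under WS+HL+HS (adjusted p = 0.036), and lower by -0.24 under WS (adjusted p = 0.042). The WS call was lost (values from -0.23 to -0.17) on leaving out WS Cleo replicate 1 or 2, CT Cleo replicate 2 or 3, WS Car replicate 2 or 3, or CT Car replicate 1 or 3. The WS+HL+HS call was lost (0.18 to 0.23) on leaving out WS+HL+HS Cleo replicate 2 or 3, CT Cleo replicate 1, WS+HL+HS Car replicate 2 or 3, or CT Car replicate 2. The HL (0.23, adjusted p = 0.082) and WS+HL (-0.17, adjusted p = 0.15) differences did not pass.

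Departures of the pairs from the sum of single responses in log2 were tested for the comparison genes as well. LOC102627294 fell short under HL+HS in Cleo (-1.79 ± 0.16, adjusted p = 4.8e-12) and exceeded the sum under WS+HS in Cleo (0.86, adjusted p = 4e-05) and in Car (0.50, adjusted p = 0.014). The Car value did not pass without CT Car replicate 3 (0.35, adjusted p = 0.086) or HS Car replicate 1 (0.41, adjusted p = 0.056). HL+HS in Car (0.36, adjusted p = 0.095) and WS+HL in Car (0.34, adjusted p = 0.15) passed on leaving out HL Car replicate 1 (0.65, adjusted p = 3.5e-05, and 0.63, adjusted p = 8.4e-05) or CT Car replicate 2 (0.48, adjusted p = 0.019, and 0.47, adjusted p = 0.032). WS+HL in Cleo stood at 0.21 (adjusted p = 0.39).

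LOC102619184 fell short under HL+HS in Cleo (-1.24, adjusted p = 2.2e-14) and in Car (-0.27, adjusted p = 0.023), and exceeded the sum under WS+HS in Car (0.44, adjusted p = 0.00016). The Car call under HL+HS was lost (-0.26 to -0.23) on leaving out HL+HS Car replicate 3, HL Car replicate 2, HS Car replicate 2 or 3, or CT Car replicate 1 or 3. Its other departures were -0.24 for WS+HL in Cleo (adjusted p = 0.051), -0.03 for WS+HS in Cleo (adjusted p = 0.90) and -0.08 for WS+HL in Car (adjusted p = 0.62). The WS+HL departure in Cleo passed (-0.31 to -0.27) on leaving out WS+HL Cleo replicate 1, WS Cleo replicate 1, HL Cleo replicate 1 or CT Cleo replicate 2. Departure calls over all genes made up 50% for HL+HS, 37.3% for WS+HS and 25.2% for WS+HL in Cleo, and 27.8% for HL+HS, 37.1% for WS+HS and 18.1% for WS+HL in Car.

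Genes of the enzyme that activase serves were looked at next. Of 3 nuclear small subunit genes of rubisco, 2 were tested. The main one, LOC102612988, had 3948 ± 156 TPM in HL+HS Cleo and 7455 ± 387 TPM in HL+HS Car, against 14768 ± 260 in CT Cleo and 10644 ± 1725 in CT Car. It fell by 1.73 on the log2 scale in HL+HS Cleo and stood at -0.18 in HL+HS Car without passing the test. By library totals, 1 small subunit gene was called lower in HL+HS Car, against 0 with TMM. Under WS, LOC102612988 fell by 3.48 in Cleo and by 2.11 in Car. The minor copy LOC102612348 (16.7 TPM in CT Cleo, 5.3 in CT Car) rose by 0.64 in HL+HS Cleo and by 1.70 in HL+HS Car. These high small subunit levels, and those of the light-harvesting genes below, are what leaf tissue holds.

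Counts of genes called in the lists below are to be read against the background for HL+HS, which was 35.5% higher and 31.5% lower in Cleo, and 29.5% higher and 31.4% lower in Car. Library totals in place of TMM, which moved the median of all genes in HL+HS Car, also moved several Car counts, and these are given beside them.

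Chaperones that fold and assemble rubisco rose more often than they fell under light with heat. Of 10 genes in this list, all tested, 5 rose and 2 fell in HL+HS Cleo (median log2 1.19, against 0.02 over all genes) and 6 rose and 1 fell in HL+HS Car (median 0.66, against 0.00 over all genes; 6 rose and 2 fell by library totals). The rises made up 50% of the list in Cleo and 60% in Car. LOC102625215, a beta subunit of the chloroplast chaperonin, rose by 1.90 in Cleo and 3.07 in Car. LOC102614876, an alpha subunit, rose by 1.41 in Cleo and 2.73 in Car, and the co-chaperonin LOC102629283 rose by 1.93 in Cleo and 2.76 in Car. Under WS none rose, and 8 fell in Cleo and 6 in Car, against the 33.4% and 35.3% of all genes called lower there. WS+HL, where LOC102630057 stood lowest against its summed gains, had no rise and 8 falls in Cleo (31.2% of all genes higher, 33.7% lower), and 3 rises and 1 fall in Car (28.8% higher, 33.2% lower; 2 rises and 2 falls by library totals).

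The chloroplast heat protection list (small heat shock proteins, chaperones and proteases, 25 genes of which 23 were tested) also holds FTSHI 1 to 5. These are described as probable inactive proteases and were kept in the counts. Members of the list were mixed. In HL+HS Cleo 11 rose and 9 fell (median 0.06), and in HL+HS Car 13 rose and 4 fell (median 0.73; 12 rose and 9 fell by library totals). The small heat shock protein LOC102608585 had 9091 ± 291 TPM in HL+HS Cleo and 12753 ± 656 in HL+HS Car, against 22.6 ± 2.0 in CT Cleo and 13.2 ± 1.2 in CT Car, and rose by 8.80 in Cleo and 10.22 in Car. LOC102630008, another small heat shock protein, rose by 5.03 in Cleo and 7.71 in Car. The other small heat shock proteins of the list also had higher mean TPM in HL+HS than in CT in both genotypes. Their group means were 8.04 to 1159 TPM in HL+HS, against 0.260 to 70.2 TPM in CT. LOC102623114, an FtsH protease that removes damaged photosystem proteins, fell by 0.89 in HL+HS Cleo and stood at -0.26 in HL+HS Car without passing. Under WS the list had 3 rises and 16 falls in Cleo and 6 rises and 14 falls in Car. Of all genes, 31.2% were higher and 33.4% lower in WS Cleo, and 29.5% higher and 35.3% lower in WS Car.

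Other enzymes of the Calvin cycle, which uses the carbon that rubisco fixes, fell more often than they rose in HL+HS Cleo. Of 19 genes matched by description, 3 are other proteins (a transcription factor and enzymes that methylate aldolase). Among all 19, 3 rose and 13 fell in HL+HS Cleo (median -0.66) and 5 rose and 6 fell in HL+HS Car (median 0.10; 2 rose and 10 fell by library totals). Among the other 16, 2 rose and 13 fell in Cleo (median -0.69), and 4 rose and 6 fell in Car (median 0.01). LOC102606603, a plastid aldolase, rose by 0.60 in Cleo and 1.23 in Car. The phosphoribulokinase LOC102612734 fell by 1.95 in Cleo and by 0.65 in Car, and the glyceraldehyde-3-phosphate dehydrogenase LOC102614495 fell by 1.31 in Cleo and by 0.39 in Car. Photorespiration, which recycles the product of rubisco's side reaction with oxygen, had 5 rises and 20 falls among 27 genes in HL+HS Cleo and 6 rises and 13 falls in HL+HS Car. Of these 27, 4 are dehydrogenases of serine synthesis that the description also matched, and without them 4 rose and 18 fell in Cleo and 2 rose and 13 fell in Car. Its glycolate oxidase LOC102617863 fell by 1.48 in Cleo and by 0.59 in Car. The glutamate--glyoxylate aminotransferase LOC102611899 fell by 0.53 in Cleo and by 0.27 in Car, and the glycine dehydrogenase LOC102627653 fell by 0.69 in Cleo and by 0.26 in Car.

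Enzymes matched as acting on inhibitors of rubisco, and chloroplast thioredoxins with their reductases, were counted in the same way. The first list also holds phosphoglycolate phosphatases. These belong to photorespiration and are counted in the photorespiration list as well. Of the 6 genes in the inhibitor list, 2 rose and 4 fell in HL+HS Cleo (1 rose and 4 fell by library totals). In HL+HS Car 1 rose and 2 fell, so that 33.3% of the list was lower against 31.4% of all genes (1 rose and 5 fell by library totals). The CbbY-like phosphatase LOC102614543 fell by 1.00 in Cleo and by 0.82 in Car, and the phosphoglycolate phosphatase LOC102631066 fell by 0.89 in Cleo and by 0.48 in Car. The carboxyarabinitol phosphatase LOC102617647 fell by 0.68 in Cleo and stood at -0.03 in Car. Of 8 genes of thioredoxins and their reductases, 0 rose and 7 fell in HL+HS Cleo and 1 rose and 5 fell in HL+HS Car. Thioredoxin f, LOC102626995, known in Arabidopsis to regulate the long activase form, fell by 1.38 in Cleo and by 0.75 in Car. Thioredoxin m, LOC102612554, fell by 1.95 in Cleo and by 0.97 in Car, and the ferredoxin-thioredoxin reductase chain LOC102629397 by 0.31 in Cleo and by 0.57 in Car.

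Of 37 photosystem and light-harvesting genes under HL+HS, 3 rose and 25 fell in Cleo (median -0.59), and 26 rose and 3 fell in Car (median 0.52; 18 rose and 8 fell by library totals). LOC102626435, a light-harvesting protein of photosystem II, had 2241 ± 360 TPM in HL+HS Cleo and 4232 ± 200 TPM in HL+HS Car, against 4646 ± 1038 in CT Cleo and 3946 ± 552 in CT Car. It fell by 0.89 in Cleo and rose by 0.44 in Car. LOC102625853 fell by 0.80 in Cleo and rose by 0.52 in Car, and LOC102608150 stood at 0.03 in Cleo and rose by 0.76 in Car.

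Markers of cell types in the leaf also differed between groups. None of the 68 marker genes was at 0 in all libraries. The summed TPM of 17 guard cell markers ranged over 72.4 to 77.2 in HL+HS Cleo and 409 to 432 in HL+HS Car, against 199 to 323 in CT Cleo and 534 to 707 in CT Car. Of these 17, 4 are aspartic proteases matched by the words of their description. By their descriptions, the other 13 are SLAC1, FAMA, SPEECHLESS, MUTE and members of the EPIDERMAL PATTERNING FACTOR family. How far each of them marks guard cells was not tested. These 13 summed to 11.7 to 13.6 TPM in HL+HS Cleo and 39.3 to 44.7 TPM in HL+HS Car, overlapping 5.17 to 22.6 in CT Cleo and 29.6 to 65.9 in CT Car. That of 7 epidermal markers was 57.4 to 66.4 in HL+HS Cleo and 198 to 228 in HL+HS Car, against 190 to 534 in CT Cleo and 377 to 647 in CT Car. The 19 vascular markers summed to 172 to 200 in HL+HS Cleo and 225 to 246 in HL+HS Car, against 295 to 415 in CT Cleo and 367 to 397 in CT Car. The 25 dividing cell markers summed to 248 to 293 in HL+HS Cleo and 170 to 180 in HL+HS Car, against 176 to 210 in CT Cleo and 193 to 227 in CT Car. In HL+HS Cleo, where 35.5% of all genes were higher and 31.5% lower, 5 guard cell markers rose and 6 fell (5 and 3 of the 13), 0 epidermal markers rose and 5 fell, 2 vascular markers rose and 10 fell, and 7 dividing cell markers rose and 8 fell. In HL+HS Car, where 29.5% of all genes were higher and 31.4% lower, 3 guard cell markers rose and 2 fell (1 and 1 of the 13), 2 epidermal markers rose and 5 fell, 1 vascular marker rose and 8 fell, and 9 dividing cell markers rose and 0 fell (3 and 1 by library totals). Their part in the response of LOC102630057, whose ratios to CT are 198 and 184, was not tested.

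To find the genes whose pattern is most like that of LOC102630057, Pearson's r was taken over the 8 group means of log2 CPM in Cleo and, apart, in Car, and the smaller of the 2 values was ranked over 10318 genes. CPM are counts scaled to library size after TMM, and genes under a mean log2 CPM of 3 were left out. For 44 genes both values passed 0.9. These values share the libraries in which LOC102630057 was chosen and are a description.

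The nearest was LOC102616318, a small subunit of the U2af splicing factor (r = 0.99 in Cleo and 0.98 in Car), with 495 TPM in HL+HS Cleo and 261 TPM in HL+HS Car, against 85.2 in CT Cleo and 143 in CT Car. Heat shock proteins followed: LOC102616579, described as heat shock protein 83-like, with r of 0.97 and 0.98 in Cleo and Car, and LOC102613214, a small cytosolic class I protein, with 0.96 and 0.97. LOC102613214 had 15226 TPM in HL+HS Cleo and 14715 TPM in HL+HS Car, against 7.92 in CT Cleo and 4.58 in CT Car. The chloroplast small heat shock protein LOC102630008 was also among the first 10 (0.95 and 0.97).

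The other genes of the first 10 were LOC102622372, a cytosolic ascorbate peroxidase that removes hydrogen peroxide (0.96 in Cleo and 0.98 in Car), and LOC102621999, the metalloprotease-like EGY3 of the chloroplast (0.96 and 0.97). LOC102612085, a root-type ferredoxin (0.96 and 0.96), LOC102612942, described as WHAT'S THIS FACTOR 1 (0.96 and 0.95), LOC102623560, a chloroplast nudix hydrolase (0.95 and 0.99), and LOC102618922, a chloroplast transcription termination factor (0.96 and 0.95), completed them. Their scale varied: LOC102623560 had 30.9 TPM in HL+HS Cleo and 32.6 TPM in HL+HS Car, against 15.4 in CT Cleo and 15.1 in CT Car. All 10 lay above CT under each of HL, HL+HS, WS+HL+HS, HS and WS+HS in both genotypes, and 3 did so under WS in Cleo and 6 in Car. Under WS+HL, 6 lay above CT in Cleo and 10 in Car. The 10 genes were picked by likeness over these same group means, so the counts largely restate that choice.

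**Figure D5:**
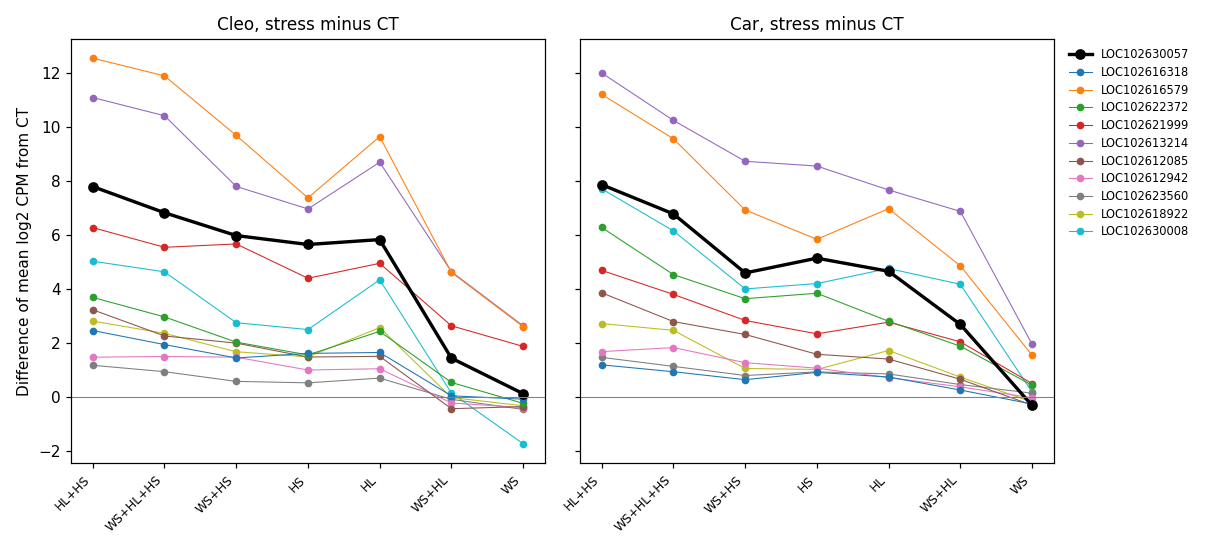
Difference of mean log2 CPM from CT under 7 stresses in Cleo (left) and Car (right) for LOC102630057 (black) and the 10 genes whose pattern over the group means was most like it. All 10 lie above 0 under HL+HS, which largely restates how they were picked, and they differ in scale.

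The comparison activases had no such likeness, with r of 0.04 in Cleo and 0.10 in Car for LOC102627294 and 0.11 in Cleo and -0.59 in Car for LOC102619184. At the other end of the ranking stood LOC102607127, described as clustered-asparagine-rich (0.36 in Cleo and -0.99 in Car), LOC102612820, a class V small heat shock protein (-0.99 and -0.62), LOC102610962, a GTPase Der (-0.98 and -0.69), LOC102612228, a DSP1-like phosphatase (-0.98 and -0.83), and LOC102621447, a GEN-like endonuclease (-0.97 and -0.85). The set of nearest genes depends on the measure: with Spearman's rho 1 of the 10 stayed among the first 10, and with r over all 16 group means 6 did.

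Genes beside LOC102630057 on its chromosome were looked up as well. In the gene order of the RefSeq sweet orange assembly DVS_A1.0, which is another assembly than that of the files, 8 of the 10 protein-coding neighbours (5 on each side) were tested. In HL+HS, 4 rose and 2 fell in Cleo (35.5% of all genes higher, 31.5% lower), and 1 rose and 2 fell in Car (29.5% higher, 31.4% lower). The adjoining LOC107177408, which has no functional description, rose by 7.67 in HL+HS Cleo, at 8.04 to 8.86 TPM against 0 to 0.0624 TPM in CT Cleo, and by 1.34 in HL+HS Car, at 0.140 to 0.575 TPM against 0.123 to 0.349 TPM in CT Car. At that level it was far below LOC102630057, and the Cleo fold change depends on the prior count. The neighbour on the other side, LOC102630356, a lectin receptor kinase, rose by 2.71 in HL+HS Cleo and stood at -0.25 in HL+HS Car.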

How the data were processed

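Leaf RNA of 48 libraries was sequenced from stranded poly(A)-selected libraries, per the labels' protocols. Per the submitters' processing notes, the tools were FastQC 0.11.7, HISAT2 2.1.0 and StringTie 2.1.3b. Neither the strand setting nor the handling of reads with several placements is stated in the sources used here. The authors deposited read counts, FPKM and TPM per gene and library, per the file headers. The deposited counts were used for tests, the authors' TPM for levels, shares and ratios, and the FPKM for nothing. StringTie derives counts from coverage, so they can be rounded estimates. Of the gene IDs, 23878 matched a RefSeq table of another assembly (DVS_A1.0), used for gene order only.

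Tests used edgeR 4.0.16 in R 4.3.3 (filterByExpr, 23721 genes, TMM, quasi-likelihood model of 16 group means, 32 residual degrees of freedom), with p-values adjusted by Benjamini-Hochberg within each of 28 comparisons and called below 0.05. Log2 CPM used a prior count of 2. The edgeR fit was tested on simulated data for HS Car against CT only. The other comparisons and steps were not simulated.

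The gene, its comparison genes and the 12 gene lists were chosen with earlier results of these data known. Lists were built from words in gene descriptions. The text names LOC102630057, every other activase, the 3 tested members of each list with the highest mean CPM, and the 10 genes most and 5 least like LOC102630057. Of the marker lists only sums and counts are given, and LOC107177408 and LOC102630356 were chosen after their values were seen. No 2 libraries were identical, and replicates of a group correlated at 0.979 or more.

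Alternatives were DESeq2 1.42.0, its size factors, no filter, a replicate block, fits of only the libraries compared, each library left out (with the dispersion trend of the full fit), unmarked libraries only and, added after seeing the data, library totals in place of TMM, lists without wrongly matched members and the chromosomal neighbours. A planned search of promoter motifs was not run, since no sequence was used here.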

Additional observations from a re-analysis of the deposited data

Results flagged for a closer look

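The stress responses of the comparison activases differed between genotypes by the interaction test in 10 cases (response in Cleo minus response in Car, log2, edgeR with Benjamini-Hochberg adjustment). For LOC102627294 the differences were -1.213 under WS+HL+HS, -0.9483 under HL+HS, -0.7524 under WS, 0.6932 under HS and 0.51 under HL. For LOC102619184 they were 1.112 under HS, 0.4073 under WS+HS, 0.3782 under HL+HS, 0.2262 under WS+HL+HS and -0.2361 under WS. LOC102630057, which was not tested, had differences of -0.07 under HL+HS, 0.05 under WS+HL+HS, 0.44 under WS and 0.50 under HS (SE 0.10 each), the 4 treatments in which both comparison genes differed.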

How the results depend on the processing

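The log2 fold changes of LOC102630057 kept their sign under every setting run. With library totals and with log2(authors' TPM + 1) they moved beyond 1 SD in HL Cleo (5.64 and 5.59), WS+HL Cleo (1.30 and 1.24), WS+HS Cleo (6.10 and 6.14), HL+HS Cleo (7.65 and 7.58), WS+HL Car (2.52 and 2.46) and HL+HS Car (7.58 and 7.51). Unmarked libraries alone, which leave 1 CT Car library whose spread is assumed to be like that of the other groups, moved WS Car (-0.14), WS+HL Car (2.84), WS+HS Car (4.77), HL+HS Car (8.04) and WS+HL+HS Car (6.96). Shares by CPM in place of TPM moved in HL+HS Cleo (72.1%), WS+HS Cleo (39.6%) and WS+HL+HS Car (60.8%). Of the 10 most like genes, 1 stayed with Spearman's rho and 6 with r over all group means.

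For LOC102627294, library totals ended the HL Cleo call (0.24) and the HL Cleo-Car call (0.38), and gave calls for CT Cleo-Car (-0.29), WS+HS Cleo-Car (0.44) and the WS+HL departure in Cleo (0.38). Only the libraries compared ended HL+HS Car (-0.30) and HL Cleo-Car (0.46) and gave the WS+HL departure in Cleo (0.20). Unmarked libraries ended HL+HS Car (-0.036), reversed CT Cleo-Car (0.20) and gave WS+HL Cleo-Car (-0.61) and the WS+HL departures in Cleo (0.21) and Car (0.30). For LOC102619184, HL Cleo was not called by library totals (0.17). WS Cleo-Car was not called by library totals (-0.21), without the filter (-0.23), in its own libraries (-0.22) or unmarked (-0.11). Own libraries also ended WS+HL+HS Cleo-Car (0.23) and the HL+HS departure in Car (-0.20). Unmarked libraries gave HL Cleo-Car (0.34) and the WS+HL departure in Cleo (-0.27) and reversed the uncalled WS+HL departure in Car (0.0305), and library totals reversed the uncalled WS+HS departure in Cleo (0.12). The cause was not tested.

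Leaving out 1 library at a time, LOC102627294 ranged over -0.36 to 0.0824 in HL Car, -0.44 to -0.17 in HL+HS Car, -0.20 to 0.0675 for CT Cleo-Car, 0.36 to 0.80 for HL Cleo-Car, -0.52 to -0.25 for WS+HL Cleo-Car, 0.15 to 0.42 for WS+HS Cleo-Car, and 0.19 to 0.63, 0.35 to 0.62 and 0.21 to 0.65 for the WS+HL, WS+HS and HL+HS departures in Car. LOC102619184 ranged over -0.31 to -0.17 for WS Cleo-Car, 0.18 to 0.26 for WS+HL+HS Cleo-Car, -0.33 to -0.23 for the HL+HS departure in Car, and -0.31 to -0.17 and -0.0962 to 0.0432 for the WS+HL and WS+HS departures in Cleo.

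Same-numbered replicates did not deviate together on average (mean r 0.00527 over 360 pairs, from -0.195 to 0.157). Pairing within a part of the design was not tested. The replicate block changed none of the 56 calls of the comparison genes, for example -0.32 for LOC102627294 in HL+HS Car. DESeq2 and its size factors changed none either. Of 224 list counts, 5 moved by over 1.5 times without wrongly matched members, 24 by library totals and 11 with only the libraries compared. With unmarked libraries 23 of 208 moved, among them the HL+HS rises of photosystem genes in Cleo (9) and Calvin cycle enzymes (8) and thioredoxins (2) in Car, and the inhibitor rises in HL+HS Cleo (1). Leaving out 1 library moved 53 of 1344, among them the folding falls in HL+HS Car without HL+HS Car replicate 3 (2), which the replicate block moved likewise (2). The promoter motif search was not run, and unmarked libraries gave no value for HS Car.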
